A study of Mus musculus with 2 samples.

Results

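The 9 genes described here make up the core of antigen presentation by class I molecules of the major histocompatibility complex (MHC): the heavy chains H2-K1 and H2-D1, their light chain B2m, the peptide transporter genes Tap1 and Tap2, the loading factor Tapbp, the inducible proteasome subunits Psmb8 and Psmb9, and the transactivator Nlrc5. They were picked by symbol, and all 9 were present among the 32285 genes listed for both libraries. Single-cell RNA was counted in 2 libraries made from pancreatic tumours of KPPC mice aged 6 weeks, 1 after vehicle and 1 after takinib at 50 mg/kg, each given for 14 days. KPPC is the name of a genetically engineered mouse model of pancreatic cancer. The labels give that name alone, without alleles, Cre driver, strain, MHC haplotype or number of mice per library, and both groups carry it. Takinib is a small-molecule inhibitor of the kinase TAK1, the product of Map3k7. With 1 library in each group no difference between treatments could be tested, so levels and ratios are given as descriptions, and every 95% interval covers counting error only.

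Class I molecules show pieces of a cell's own proteins to CD8+ T cells. Proteasomes cut proteins into peptides, and interferon-gamma brings in Psmb8, Psmb9 and Psmb10 in place of the standard subunits Psmb5, Psmb6 and Psmb7. The transporter formed by Tap1 and Tap2 moves the peptides into the endoplasmic reticulum, where tapasin, the product of Tapbp, holds the heavy chain paired with B2m until a peptide is bound. Nlrc5 acts at class I promoters together with proteins that sit on a conserved run of short DNA boxes, and low class I levels on tumour cells are a known way of escaping T cells in pancreatic cancer.

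In the GENCODE M21 annotation of GRCm38, 7 of the 9 genes lie on chromosome 17. Tapbp spans chr17:33915899-33929292 and H2-K1 spans chr17:33996017-34000347, followed by Psmb9 (chr17:34181987-34187764), Tap1 (chr17:34187553-34197225), Psmb8 (chr17:34197721-34201454) and Tap2 (chr17:34203527-34216321), and H2-D1 spans chr17:35262730-35267499. B2m lies at chr2:122147686-122153083 and Nlrc5 at chr8:94434356-94527272. Psmb9 and Tap1 run in opposite directions from RefSeq start sites with 225 bases between them, so their promoter windows share most of their letters. The coordinates are those of GRCm38, the build that the submitters' processing notes name as mm10.

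RefSeq promoter windows of GRCm38.p6, from 250 bases before to 50 after a start site, were matched for 7 of the 9 genes. The windows of H2-K1, H2-D1 and B2m, the genes of the class I molecule itself, each held the letters TGACG (the core of an X2 box) followed after 20 bases by ATTGG (a Y box), and they are printed for that reason with both runs of letters in capitals. For H2-K1 the bases are chr17:34000348-34000597 on the minus strand, for B2m chr2:122147437-122147685 on the plus strand, and for H2-D1 the pair alone, chr17:35262993-35263022 on the plus strand.
H2-K1: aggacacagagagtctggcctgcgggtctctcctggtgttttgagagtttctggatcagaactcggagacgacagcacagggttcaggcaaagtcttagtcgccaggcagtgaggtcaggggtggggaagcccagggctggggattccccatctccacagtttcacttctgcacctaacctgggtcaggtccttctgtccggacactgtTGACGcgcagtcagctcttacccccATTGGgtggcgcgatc
B2m: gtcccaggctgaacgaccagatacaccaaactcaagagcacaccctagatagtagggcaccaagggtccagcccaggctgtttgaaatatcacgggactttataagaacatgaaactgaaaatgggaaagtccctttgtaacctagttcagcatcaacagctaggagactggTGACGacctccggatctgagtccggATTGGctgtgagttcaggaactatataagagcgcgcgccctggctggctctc
H2-D1: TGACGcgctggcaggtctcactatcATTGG

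The pair began 41 bases before the start site in H2-K1 (55 before another RefSeq start site of the gene), 78 before it in B2m and 101 before it in H2-D1. Of its 30 bases H2-K1 and H2-D1 had 23 in common, H2-K1 and B2m 13, and H2-D1 and B2m 12. The spaced pair was noticed in these letters first and then counted on both strands of all windows, where 31 of 32544 (0.0953%), from 27 genes, held it, the class I-like gene H2-M3 among them. Each run alone is common: TGACG stood in 20.9% and ATTGG in 37.4% of windows. The letters of an interferon-stimulated response element (GAAA, any 2 bases, GAAA), found in 3.45% of windows, were present in that of B2m, as were, on the opposite strand, those of an NF-kB site (GGG, any 3 bases, TTCC, in 5.56% of windows). The window of Psmb8 held TTCNNNGAA, the letters of a gamma-activated site (8.33%). These are matches of letters, not measured binding sites, and the data hold no measurement of binding.

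After the same filters in both libraries, 9558 vehicle and 25183 takinib cells were kept, with 42000538 and 119726977 unique molecular identifiers (UMIs, each standing for 1 captured transcript). The libraries also differed in median depth per cell (3556 and 2887 UMIs), in the median share of mitochondrial UMIs (8.70% and 1.79%), in the Cell Ranger version that the file headers name (4 and 6.1.1) and in sex-linked transcripts, and 400 barcode sequences past the filters occurred in both. In vehicle 1075 kept cells held Xist without Y-linked UMIs (female origin) and 3087 held Y-linked UMIs without Xist (male origin), while takinib held 0 Y-linked UMIs. These differences and the treatment cannot be told apart. Transcripts of neutrophils were also spread through the takinib cells: the summed level of S100a8 and S100a9, in CPM (UMIs of a gene among 1000000 UMIs of the same group of cells), was 99.98 in vehicle and 10091 in takinib epithelial-like cells, and 729 and 44205 in B-like cells.

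Cells were clustered without the 9 genes or the other genes of their pathway, and clusters were named from markers. Of 13 named classes 8 held at least 100 cells in each library: macrophage-like (4645 vehicle and 4213 takinib cells), monocyte-like (115 and 901), neutrophil-like (273 and 12262), T-like (248 and 1247), B-like (213 and 1256), epithelial-like (1716 and 1923), fibroblast-like (688 and 354) and endothelial-like (717 and 104). Every marker of a class was detected in that class in both libraries, but detection in summed counts does not tell classes apart. Vehicle macrophage-like cells also held all 10 T and all 8 B markers. In takinib B-like cells the neutrophil markers together reached 47239 CPM and the B markers 3682 CPM. In several classes the libraries filled different clusters or filled them unevenly. Of the macrophage-like cells, 3316 vehicle but 262 takinib cells belonged to a cluster led by H2-Ab1, while most takinib cells belonged to clusters led by Chil3, Gpnmb and Ccl8. Of the neutrophil-like cells, 259 vehicle cells belonged to a cluster led by Retnlg, whereas the takinib cells were spread over this and other clusters led by G0s2 and Lst1. Of the epithelial-like cells, the largest cluster was led by Cdkn2a in vehicle (1077 cells) and by Dmbt1 in takinib (961 cells). Of the B-like cells, 1 cluster held 210 vehicle and 681 takinib cells and another 3 and 575. Of the endothelial-like cells, the cluster led by Plvap held 632 vehicle and 74 takinib cells and that led by Mmrn1 85 and 30.

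Among these classes all 9 genes were lowest in epithelial-like cells, and apart from Tapbp in vehicle, which was highest in neutrophil-like cells, each was highest in T-like, B-like or monocyte-like cells. Epithelial-like cells ranked 8 of 8 for each of the 9 genes in both libraries. H2-K1, one of the classical heavy chains, stood at 2138 CPM in vehicle and 1342 CPM in takinib T-like cells, against 301 and 291 CPM in epithelial-like cells. For H2-D1, the other classical heavy chain measured here, monocyte-like cells were highest, with 1335 and 1571 CPM, and epithelial-like cells lowest, with 275 and 388 CPM. T-like cells thus held 7.10 times the epithelial-like level of H2-K1 in vehicle and 4.61 times in takinib.

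The light chain B2m kept the same order of the 8 classes in both libraries (Spearman's rho 1.0 over 8 classes, given as a description). From high to low this order was monocyte-like (2419 CPM in vehicle and 1792 in takinib), T-like (1859.8 and 1719.9), macrophage-like (1635 and 1674) and endothelial-like (1381 and 1633). It went on with B-like (1304 and 1329), neutrophil-like (1080.1 and 1049), fibroblast-like (1037 and 809) and epithelial-like cells (334 and 377). Neighbours whose counting intervals overlapped were endothelial-like and B-like as well as neutrophil-like and fibroblast-like cells in vehicle, and the first 4 classes in takinib. H2-K1 and H2-D1 had rho 0.952 between libraries.

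**Figure D1:**
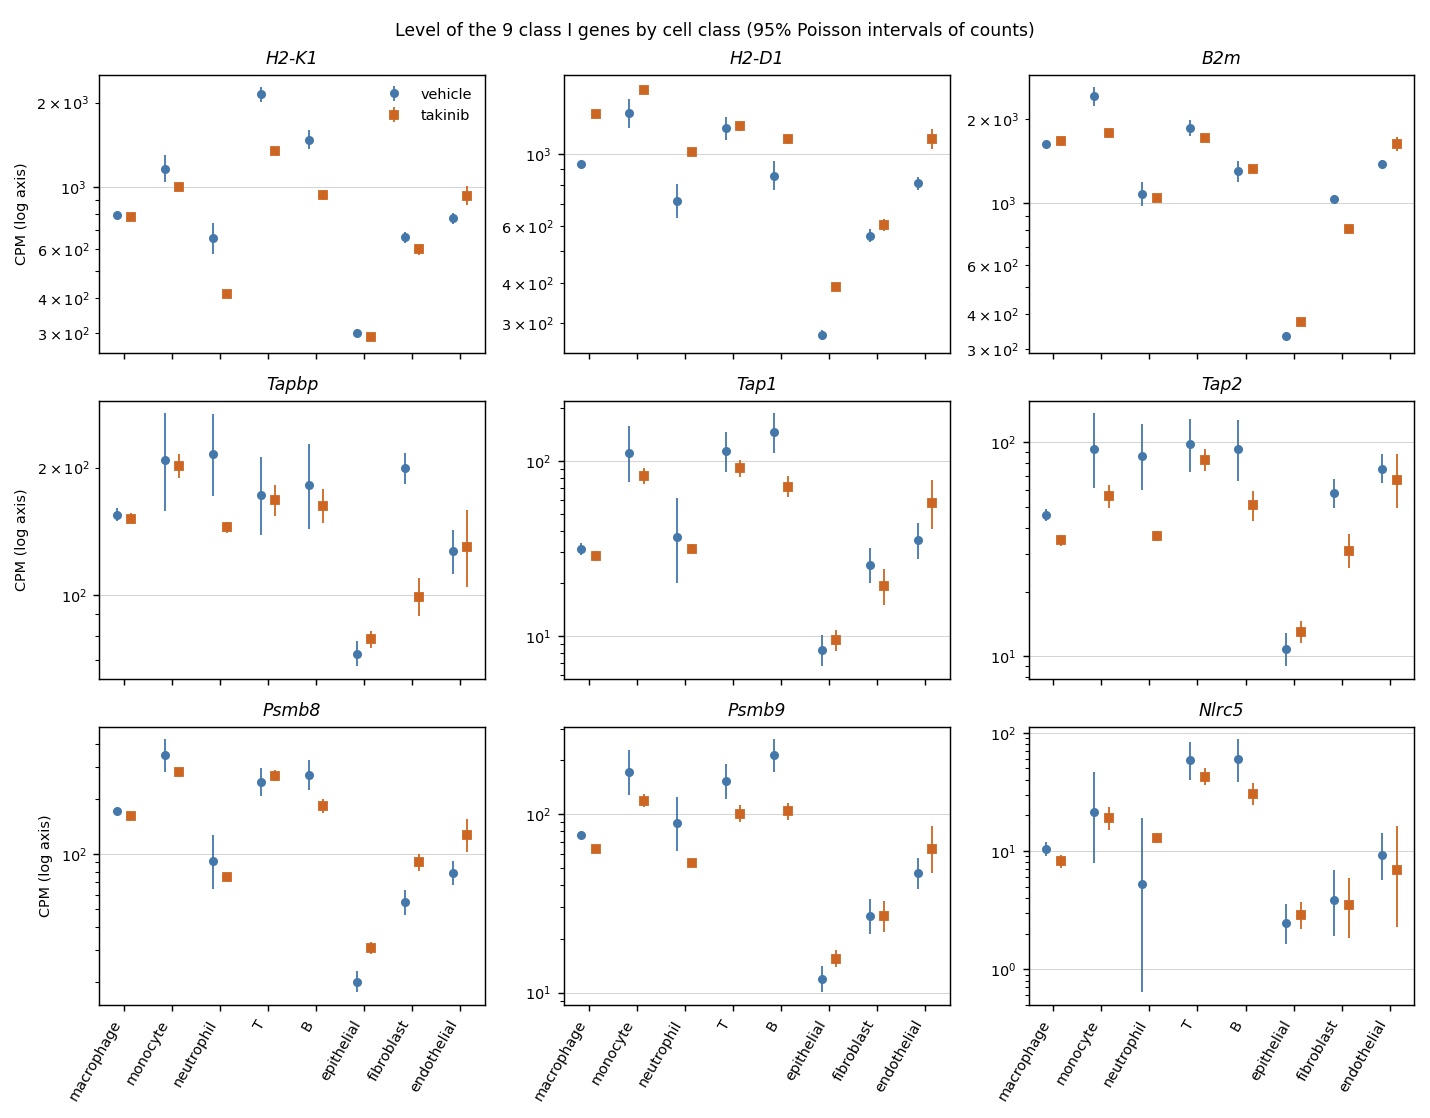
Level of each of the 9 class I genes in the 8 cell classes, in CPM on a log axis with a range of its own in each panel, for the vehicle library (circles) and the takinib library (squares); bars are 95% Poisson intervals of the summed counts, which cover counting error only. Epithelial-like cells hold the lowest point of both libraries in all 9 panels.

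The transporter and proteasome genes were spread more widely between classes than the genes of the class I molecule. Tap1, one chain of the peptide transporter, stood at 146 CPM in vehicle and 71.3 CPM in takinib B-like cells and at 8.29 and 9.43 CPM in epithelial-like cells, and Tap2, its partner, at 98.0 and 82.6 CPM in T-like and 10.8 and 13.03 CPM in epithelial-like cells. For Psmb8 the values were 348 and 279.7 CPM in monocyte-like cells and 19.98 and 30.6 CPM in epithelial-like cells, and for Psmb9 they were 213 and 103 CPM in B-like cells and 11.95 and 15.5 CPM in epithelial-like cells. In vehicle, B-like cells held 17.6 times the epithelial-like level of Tap1 and 17.8 times that of Psmb9, against 3.91 times that of B2m. Tapbp differed least between these classes, from 72.6 CPM in epithelial-like to 215 CPM in neutrophil-like vehicle cells and from 78.4 CPM in epithelial-like to 202 CPM in monocyte-like takinib cells, and its order of classes was the least alike between libraries (rho 0.429, against 0.833 to 1.0 for the other 8 genes). Much of this order was within counting error. Neighbours had overlapping intervals from neutrophil-like down to macrophage-like cells in vehicle, and from T-like down to fibroblast-like cells in takinib.

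Nlrc5, the transactivator of the class I genes, was the sparsest of the 9 by counts. It stood at 59.7 and 30.5 CPM in B-like cells and at 58.8 and 42.7 CPM in T-like cells, in vehicle and takinib. In macrophage-like cells it stood at 10.5 and 8.22 CPM and in epithelial-like cells at 2.44 and 2.87 CPM, from 28 and 62 counts. B-like and T-like cells were thus the highest for this gene in both libraries. In vehicle the counting intervals of all neighbours in the order overlapped, and in takinib those of T-like and B-like cells and those from macrophage-like cells downwards.

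Across the 20 pools of class and library with at least 100 cells, the 9 genes varied together to differing degrees. Pearson's r of log2(CPM + 10) was 0.94 between Psmb8 and Psmb9, 0.91 between the neighbours Tap1 and Psmb9, and lowest, 0.55, between Tapbp and Nlrc5. Among the genes whose pattern was most like the mean of the 9, of 11672 genes considered, were Sp110 (r 0.95) and Sp100 (0.93), which encode nuclear body proteins, and further Gng2 (0.89), a G-protein subunit, and Def6 (0.88), an exchange factor of lymphocytes. These are descriptions over pools that share libraries and depth, and Psmb9 itself had r 0.97 with the mean that it is part of.

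Within the epithelial-like cells the level depended on the cluster. The cluster led by Spink4 and Mptx1, with the intestinal mucin Muc2 among its leading genes (102 vehicle and 80 takinib cells), held 768 and 1572 CPM of B2m and 137 and 189 CPM of Psmb8. In the cluster led by Cdkn2a and Hmga2 (1077 and 657 cells) these were 334 and 372 CPM of B2m and 13.3 and 20.5 CPM of Psmb8. In that led by Dmbt1 and Gkn3 (514 and 961 cells) they were 253 and 315 CPM of B2m and 10.6 and 30.8 CPM of Psmb8. The low epithelial-like values were those of the clusters led by Cdkn2a and Dmbt1, which held most of the class, while the small Spink4-led cluster was higher for both genes in both libraries. In the unfiltered vehicle library, 376283 barcodes of 1 to 100 UMIs, too shallow for the cells kept here, held 806 CPM [739, 878] of B2m, 495 CPM of H2-K1 and 69.0 CPM of Psmb8, all above the level of the vehicle epithelial-like cells, and the part of such RNA in the epithelial-like values was not tested.

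**Figure D2:**
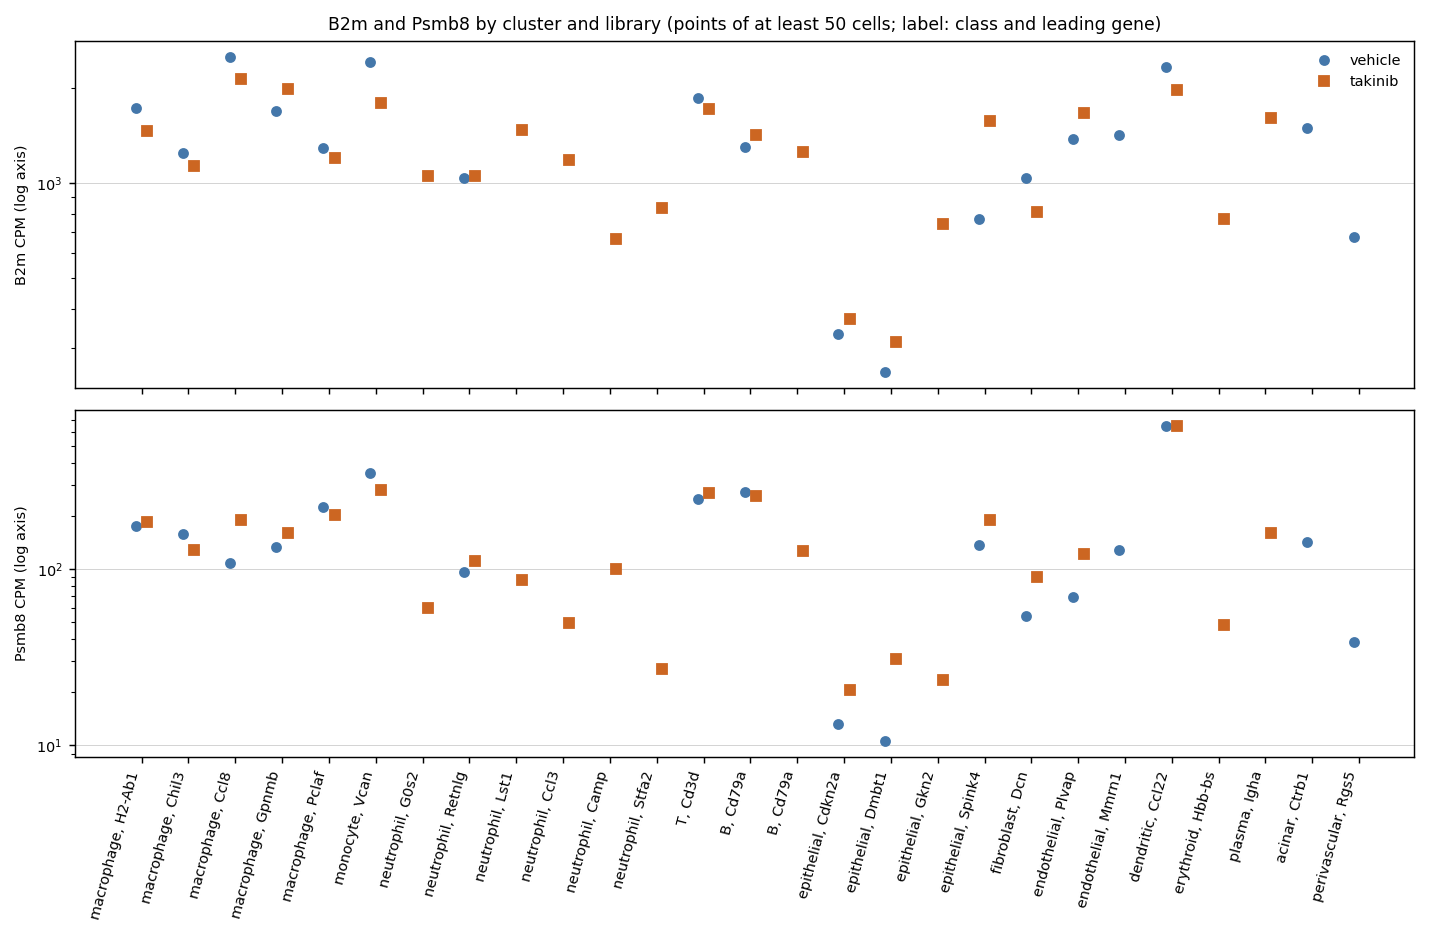
B2m (top) and Psmb8 (bottom) in CPM on log axes, by cluster (labelled with its class and leading gene) and library; a point needs at least 50 cells of that library in the cluster. The epithelial clusters led by Cdkn2a and Dmbt1 hold the lowest B2m points, and the dendritic-like cluster led by Ccl22 holds the highest Psmb8 points.

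The comparison of takinib with vehicle asked, class by class, whether presentation genes differed between the treatments. Each difference is the log2 ratio of the takinib to the vehicle level after adding 10 CPM to both, so ratios of weakly expressed genes come out too small, and a class is read against all its genes with at least 50 counts in a library. Differences were mostly below 1.5-fold, and their direction varied between classes and between members. Over the 9 genes the median ratio was lowest in B-like cells (-0.66, against -0.030 for all genes) and highest in endothelial-like cells (0.27, against -0.18).

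In macrophage-like cells 0 of the 9 genes were past 1.5-fold or 2-fold in either direction, where 4.59% of 11427 genes were higher and 3.0% lower by over 1.5-fold, and 1.5% and 0.963% by over 2-fold. Their median was -0.083, and that of all genes 0.022. Epithelial-like cells also had 0 of 9 past either fold, beside 5.69% and 7.78% of 12534 genes past 1.5-fold and 2.35% and 1.91% past 2-fold (higher and lower in that order). Here 8 of the 9 were higher in takinib, with a median of 0.15 against -0.090 for all genes, of which 39.3% were higher. With the neutrophil profile subtracted from takinib, in proportion to S100a8 and S100a9, 5 of the 9 were higher and the median was 0.0073, with B2m at -0.053 and Tap1 at -0.053.

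Monocyte-like cells had 1 of 9 lower by over 1.5-fold, Tap2, beside 7.64% of 6941 genes, and 0 higher, beside 19.6%; past 2-fold there were 0, beside 7.03% higher and 1.84% lower. T-like cells likewise had 1 lower, H2-K1, beside 7.87% of 6750 genes, and 0 higher, beside 11.4%, with 0 past 2-fold (4.96% and 1.33%). The medians were -0.31 in monocyte-like (all genes 0.12) and -0.22 in T-like cells (all genes -0.017), with 8 and 7 of the 9 lower. The monocyte-like median was 0.16 against the 28 vehicle cells of male origin, and the T-like median was 0.033 to 0.064 with a mitochondrial limit of 10%, with 2000 UMIs and 1000 genes required, or with each library clustered on its own. Under the first 2 of these settings 0 T-like members were lower by over 1.5-fold. The same held with the neutrophil profile subtracted and against vehicle cells of male origin.

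B-like cells had 5 of 9 lower by over 1.5-fold, beside 13.2% of 5955 genes, and 0 higher, beside 18.0%, with 0 past 2-fold (10.3% higher and 2.99% lower). The genes lower were Psmb9 (213 CPM in vehicle and 103 in takinib, log2 ratio -0.97 [-1.30, -0.63]), Tap1 (146 and 71.3 CPM, -0.94 [-1.32, -0.54]), Nlrc5 (-0.78 [-1.33, -0.21]), Tap2 (-0.77 [-1.23, -0.28]) and H2-K1 (-0.66 [-0.78, -0.53]). In the B-like cluster that both libraries filled the median was -0.38, with 3 genes past 1.5-fold. The takinib B-like counts also held the most neutrophil transcript, and subtracting a neutrophil profile in proportion to S100a8 and S100a9 removed 32.7% of their UMIs and left a median of -0.32 and 3 genes past 1.5-fold, Psmb9, Tap1 and Tap2, with H2-K1 at -0.32 and Nlrc5 at -0.51. Over the other alternatives the number lower by over 1.5-fold was 2 (vehicle cells of male origin) to 5, and 3 were past 2-fold with a mitochondrial limit of 10%, or with 2000 UMIs and 1000 genes required. The median of the 9 genes was below 0 under all 12 alternatives run in B-like cells.

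Neutrophil-like cells had 3 of 9 lower by over 1.5-fold, Tap2, Psmb9 and H2-K1, beside 31.5% of 10504 genes, a share near the background, and 0 higher, beside 8.04%. Past 2-fold stood Tap2 alone, beside 10.6% lower and 3.65% higher. With the median gene of the class set to 0, 1 was lower and 2 were higher by over 1.5-fold. That median gene was at -0.31 and the median of the 9 at -0.26. Within the Retnlg-led cluster, which held 259 vehicle and 2602 takinib cells, the median of the 9 was 0.020.

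Fibroblast-like cells had 1 of 8 higher by over 1.5-fold, Psmb8, beside 10.9% of 8337 genes, and 2 lower, Tapbp and Tap2, beside 15.5%, with 0 past 2-fold (4.41% higher and 5.61% lower). At a mitochondrial limit of 10%, 0 fibroblast-like members were higher by over 1.5-fold. In endothelial-like cells 1 of 8 was higher, again Psmb8, beside 7.73% of 6558 genes, and 0 lower, beside 20.2%, with 0 past 2-fold (3.64% and 5.63%). Nlrc5 stayed below 50 counts in both classes and is the member left out of these counts. The medians of all 9 were -0.14 and 0.27, beside -0.071 and -0.18 for all genes.

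**Figure D3:**
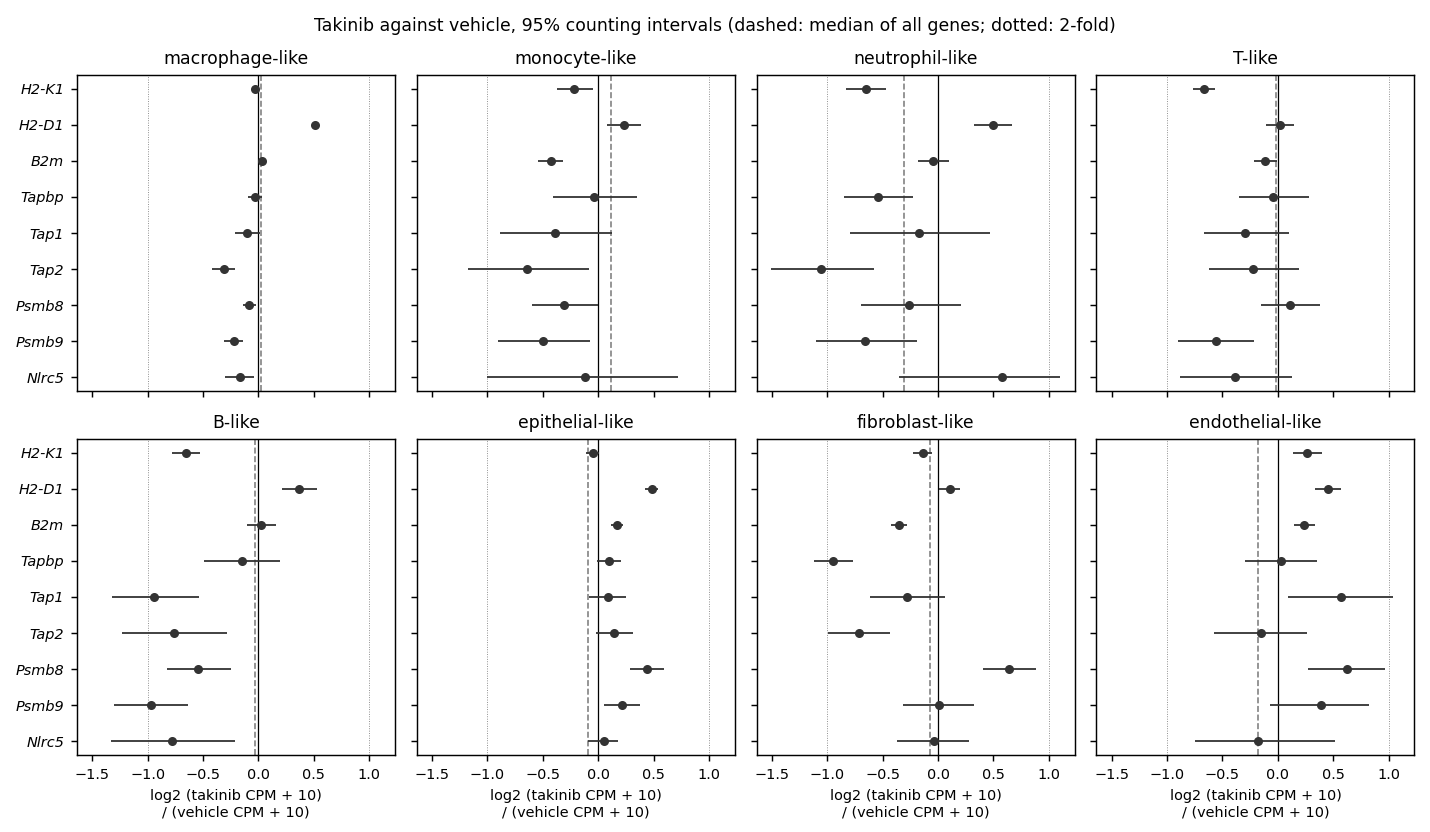
Log2 ratio of takinib to vehicle for each of the 9 class I genes in the 8 classes, with 10 CPM added to each level; bars are 95% counting intervals, the dashed line is the median of all genes of the class and the dotted lines mark 2-fold. H2-D1 lies to the right of 0 in all 8 panels, and most other points of the B-like panel lie to the left.

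The heavy chains did not move alike. H2-D1 was higher in takinib in all 8 classes, with 930.2 CPM in vehicle and 1327 in takinib macrophage-like cells (log2 ratio 0.51 [0.48, 0.53]) and 275 and 388 CPM in epithelial-like cells (0.48 [0.42, 0.54]). Its ratio was 0.49 [0.32, 0.67] in neutrophil-like, 0.45 [0.33, 0.57] in endothelial-like and 0.37 [0.21, 0.53] in B-like cells, and near 0 in T-like cells (0.019 [-0.10, 0.14]). H2-K1 was lower in takinib in 7 of 8 classes, of which the epithelial-like ratio became 0.042 when the median gene of the class was set to 0. It stood at 2138 CPM in vehicle and 1342 in takinib T-like cells (-0.67 [-0.76, -0.57]), at 657 and 415 CPM in neutrophil-like cells (-0.65 [-0.83, -0.47]) and at 794 and 778 CPM in macrophage-like cells (-0.028 [-0.057, 0.00012]). In endothelial-like cells it was higher (0.27 [0.14, 0.40]). Some directions changed with the setting: the neutrophil-like ratio of H2-D1 was -0.0028 with the members among the clustering genes, the T-like ratio of H2-D1 was -0.078 with every cell thinned to 1000 UMIs, and against vehicle cells of female origin the ratio of H2-K1 was 0.43 in macrophage-like and -0.067 in endothelial-like cells. Against vehicle cells of male origin the ratio of H2-K1 was 0.016 in fibroblast-like and 0.026 in epithelial-like cells.

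Set against each other within the same cells, the 2 heavy chains gave a difference of the same direction in every class. Of the UMIs of H2-K1 and H2-D1 together, H2-K1 made up 46.0% [45.5, 46.6] in vehicle and 37.0% [36.6, 37.3] in takinib macrophage-like cells, 63.2% [60.1, 66.2] and 45.7% [44.4, 47.0] in B-like cells, and 64.0% [61.7, 66.3] and 52.4% [51.4, 53.5] in T-like cells. In epithelial-like cells it made up 52.2% [51.0, 53.4] and 42.8% [42.0, 43.6], and in neutrophil-like cells 47.8% [43.4, 52.2] and 29.04% [28.6, 29.5]. Endothelial-like cells differed least, with 48.8% [47.1, 50.5] and 45.5% [43.0, 48.1]. The share was lower in takinib in all 8 classes and in 15 of the 15 clusters with at least 50 cells in each library, all of which come from the same 2 libraries.

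Several values stood beside this shift. Takinib neutrophils, whose transcripts were spread through the other takinib classes, had the lowest share, and with their profile subtracted the takinib share was 50.7% in B-like, 45.4% in epithelial-like and 47.9% in endothelial-like cells, each below the value of all vehicle cells of its class. In vehicle macrophage-like cells of female origin the share was 39.5% [38.0, 41.2], against 46.7% [45.8, 47.6] in those of male origin, so these differed within the vehicle library as well, whereas in epithelial-like cells it was 51.5% and 52.4%. In endothelial-like cells of male origin it was 47.0%, below the subtracted takinib value. H2-K1 and H2-D1 are near-identical paralogs, the haplotype of the mice is not given, and the libraries were counted with different Cell Ranger versions, so how reads were split between them is uncertain. Apart from the subtracted and separated values, their part in the lower share was not tested.

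**Figure D4:**
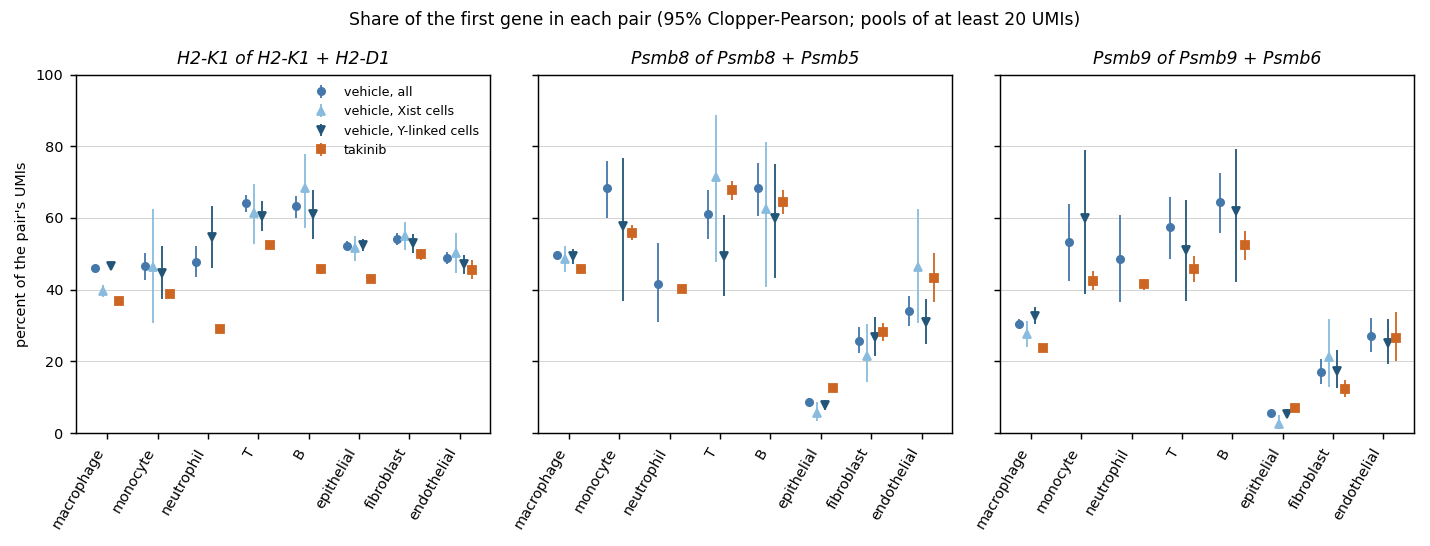
Share of the first gene in the summed UMIs of each pair, in percent, by class, for all vehicle cells (circles), vehicle cells with Xist UMIs only (pale triangles), vehicle cells with Y-linked UMIs only (dark triangles) and takinib cells (squares), with 95% Clopper-Pearson intervals; pools under 20 UMIs are left out. In the left panel every takinib point lies below the point of all vehicle cells in its class.

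B2m, which every class I heavy chain needs, differed little: it was 1635 CPM in vehicle and 1674 in takinib macrophage-like cells (log2 ratio 0.033 [0.014, 0.053]) and 334 and 377 CPM in epithelial-like cells (0.17 [0.11, 0.22]). The epithelial-like ratio changed direction with the neutrophil profile subtracted, as given above. The largest differences of B2m among the classes were lower values, in monocyte-like cells (2419 and 1792 CPM, -0.43 [-0.54, -0.32]) and fibroblast-like cells (1037 and 809 CPM, -0.35 [-0.43, -0.28]). In the Spink4-led epithelial cluster B2m had a ratio of 1.02, against 0.15 in the Cdkn2a-led and 0.31 in the Dmbt1-led cluster.

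The transporter gene Tap2 was lower in takinib in 7 of 8 classes, of which the endothelial-like ratio became 0.026 with the median gene set to 0 and the T-like ratio 0.30 with at least 2000 UMIs and 1000 genes required. It stood at 86.7 CPM in vehicle, from 33 counts, and 36.5 CPM in takinib neutrophil-like cells (log2 ratio -1.06 [-1.51, -0.58]), at 57.8 and 31.2 CPM in fibroblast-like cells (-0.72 [-0.997, -0.44]) and at 45.7 and 34.9 CPM in macrophage-like cells (-0.31 [-0.41, -0.21]). Epithelial-like cells were the class with a higher level, 10.8 and 13.03 CPM (0.15 [-0.023, 0.31]). Its partner Tap1 was lower in 6 classes, the neutrophil-like one turning to 0.14 with the median gene set to 0, and higher in epithelial-like (0.087 [-0.082, 0.25]) and endothelial-like cells (35.1 and 57.1 CPM, 0.57 [0.093, 1.04]). Several of these intervals reach past 0, among them those of Tap1 in the macrophage-like, monocyte-like, neutrophil-like, T-like, epithelial-like and fibroblast-like classes, so a difference was not detectable at this depth there.

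Tapbp, the gene of tapasin, had ratios between -0.15 in B-like and 0.099 in epithelial-like cells in 6 classes, with 155 and 152 CPM in macrophage-like cells (-0.029 [-0.091, 0.033]). It was lower in neutrophil-like cells (215 and 145 CPM, -0.54 [-0.85, -0.23]) and lowest in ratio in fibroblast-like cells, where it stood at 199 CPM in vehicle and 98.7 CPM in takinib (-0.94 [-1.12, -0.77]). With every cell thinned to 1000 UMIs that ratio was -0.59, and with each library clustered on its own it was -0.97.

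Psmb8, the inducible subunit that takes the place of Psmb5, was higher in takinib in 4 classes, the epithelial-like, fibroblast-like, endothelial-like and T-like cells, and in neutrophil-like cells its ratio turned from -0.26 to 0.051 with the median gene set to 0. It stood at 19.98 CPM in vehicle and 30.6 in takinib epithelial-like cells (0.44 [0.29, 0.59]), at 54.3 and 90.5 CPM in fibroblast-like cells (0.64 [0.40, 0.89]) and at 78.6 and 127 CPM in endothelial-like cells (0.63 [0.28, 0.97]). The endothelial-like ratio, which rests on 91 takinib counts, was -0.19 when every cell was thinned to 1000 UMIs. In B-like cells Psmb8 was lower (272 and 184 CPM, -0.54 [-0.82, -0.25]), but in the B-like cluster that both libraries filled its ratio was -0.064. Psmb9, the counterpart of Psmb6, was lower in the 5 immune classes, from -0.22 [-0.31, -0.14] in macrophage-like to -0.97 [-1.30, -0.63] in B-like cells, and higher in epithelial-like cells (0.22 [0.048, 0.38]).

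As a share of the pair Psmb8 and Psmb5, Psmb8 made up 8.55% [7.52, 9.68] of UMIs in vehicle and 12.6% [11.7, 13.6] in takinib epithelial-like cells, 49.7% [48.5, 50.8] and 45.7% [44.7, 46.6] in macrophage-like cells, and 61.1% [54.1, 67.7] and 67.7% [65.1, 70.2] in T-like cells. The share was thus higher in takinib in epithelial-like and lower in macrophage-like cells beyond counting error, and the intervals of T-like cells overlapped. The epithelial-like share was 10.9% in takinib with the neutrophil profile subtracted, and 5.64% in vehicle cells of female and 7.80% in those of male origin. For Psmb9 and Psmb6 the share of Psmb9 was 30.4% [29.2, 31.7] and 23.6% [22.7, 24.5] in macrophage-like cells and 5.56% [4.69, 6.54] and 7.0% [6.29, 7.76] in epithelial-like cells, where the subtracted takinib share was 5.42%, no higher than vehicle. The third pair, Psmb10 and Psmb7, had Psmb10 at 64.1% [62.6, 65.7] and 57.9% [56.5, 59.2] in macrophage-like, 51.3% [45.9, 56.6] and 34.3% [30.04, 38.8] in fibroblast-like and 26.9% and 27.1% in epithelial-like cells. In macrophage-like cells all 3 inducible shares were therefore lower in takinib. In epithelial-like cells the share of Psmb8 was higher and that of Psmb10 nearly the same. The share of Psmb9 there was higher, with overlapping intervals, but not after the subtraction.

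Nlrc5 had log2 ratios from -0.78 in B-like to 0.58 in neutrophil-like cells. In macrophage-like cells, the class with the most vehicle counts of it, 212 vehicle and 251 takinib counts gave -0.17 [-0.30, -0.037]. The neutrophil-like value rests on 2 vehicle counts (5.26 CPM in vehicle, 12.8 in takinib, interval [-0.35, 1.10]). Outside macrophage-like and B-like cells every interval of Nlrc5 included 0, so no difference was detectable at this depth.

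The share of cells with at least 1 UMI of a gene was compared at equal depth. With every cell thinned to 1000 UMIs, B2m was found in 27.4% [25.3, 29.6] of the epithelial-like cells of vehicle and 36.9% [34.7, 39.1] of those of takinib (70.9% and 86.4% before thinning, at median depths of 5051 and 8904 UMIs), against 77.5% and 74.3% of macrophage-like cells (97.2% and 97.6% unthinned, at 3931 and 6394 UMIs). H2-K1 was found in 86.7% [81.8, 90.7] and 75.2% [72.7, 77.6] of T-like cells (95.6% and 91.9% unthinned, at 1412.5 and 1876 UMIs). The epithelial-like share of B2m was thus higher and the T-like share of H2-K1 lower in takinib beyond counting error, in the direction of their uncorrected levels. With the neutrophil profile subtracted, the epithelial-like ratio of B2m changed direction, as given above. The shares of cells were not corrected for such RNA. No class measured here is known to lack these genes, so a background share could not be read from such a class.

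The rest of the pathway was taken from lists. Of 10 further proteasome genes, all 10 were lower in takinib neutrophil-like cells (median log2 ratio -0.44), 9 of 10 in B-like (-0.31), 8 of 10 in T-like (-0.31) and 6 of 10 in macrophage-like cells (-0.11). In fibroblast-like cells 7 of the 9 with enough counts were higher (0.42), led by Psma7, a subunit of the outer ring of the proteasome (211 and 402 CPM, 0.90 [0.77, 1.03]). The genes with the lowest macrophage-like ratios were Psme2b (-0.45) and the proteasome activator gene Psme1 (248.6 and 199 CPM, -0.31 [-0.36, -0.26]). These medians stand beside those of all genes in the same classes, -0.31, -0.030, -0.017, 0.022 and -0.071 in that order. The shares of all genes that were higher were 29.6%, 48.2%, 48.3%, 54.5% and 44.3% in the same order.

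Genes of peptide loading and trimming, 8 in all, were lower in takinib for 8 of 8 in neutrophil-like (median -0.49, all genes -0.31), 6 of 8 in epithelial-like (-0.23, all genes -0.090) and T-like cells (-0.19, all genes -0.017). In endothelial-like cells 7 of 7 were lower, at a median of -0.19 that was close to that of all genes, -0.18. Of all genes, 29.6% were higher in neutrophil-like, 39.3% in epithelial-like, 48.3% in T-like and 35.7% in endothelial-like cells. Calr, the chaperone calreticulin, stood at 421 CPM in vehicle and 307 in takinib epithelial-like cells (-0.45 [-0.50, -0.39]) and at 248.9 and 169 CPM in T-like cells (-0.54 [-0.80, -0.26]). Canx, the gene of calnexin, which folds new heavy chains, stood at 314 and 212 CPM in T-like cells (-0.54 [-0.78, -0.29]). In macrophage-like cells 4 were higher and 4 lower (-0.048).

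Among 11 other class I and class I-like heavy chains, endothelial-like cells had 5 of 8 higher (0.62), beside 35.7% of all genes, with H2-Q6 at 46.7 and 107 CPM (1.05 [0.66, 1.43]) and H2-T22 at 33.3 and 76.6 CPM (1.000 [0.55, 1.44]). In neutrophil-like cells 7 of 10 were lower (-0.50), a share close to that of all genes there. In B-like cells 5 of 6 were lower (-0.50) and in monocyte-like cells 6 of 8 (-0.61), where 48.2% and 59.0% of all genes were higher and the medians of all genes were -0.030 and 0.12. H2-Q7, a non-classical heavy chain, stood at 441 and 252 CPM in T-like cells (-0.78 [-0.99, -0.57]), and H2-T23, which encodes the Qa-1 molecule read by natural killer cells, at 146 and 179.8 CPM in macrophage-like cells (0.28 [0.22, 0.35]). Some of these genes too are related in sequence, which leaves their split uncertain.

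Of 22 regulators, 14 of the 20 with enough counts were higher and 6 lower in macrophage-like cells (0.12), and 13 higher and 6 lower of 19 in T-like (0.29) and in B-like cells (0.21). Of all genes, 54.5% were higher in macrophage-like, 48.3% in T-like and 48.2% in B-like cells, with medians of 0.022, -0.017 and -0.030. Ifng, the interferon that induces the pathway, stood at 1.96 CPM in vehicle, from 1 count, and 26.9 CPM in takinib T-like cells, from 90 counts (1.62 [0.78, 1.89]). Socs3, a feedback inhibitor of cytokine signals, was higher in epithelial-like (36.1 and 110.4 CPM, 1.38 [1.26, 1.51]) and B-like cells (2.21 [1.65, 2.80]) and lower in macrophage-like cells (-0.51 [-0.56, -0.46]). Nfya, a subunit of the factor that binds the Y box printed above, was among the 2 lowest ratios in 5 of the 8 classes, with 34.7 and 14.7 CPM in epithelial-like (-0.85 [-0.999, -0.71]) and 28.4 and 18.6 CPM in macrophage-like cells (-0.43 [-0.54, -0.31]).

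For comparison, genes of MHC class II, which present peptides to CD4+ T cells, were lower in takinib in every class: all 8 genes in macrophage-like cells (median -1.67) and in B-like cells (-0.48), 5 of 5 in monocyte-like (-2.76) and 6 of 6 in epithelial-like cells (-1.05). H2-Ab1 stood at 2906 CPM in vehicle and 546 in takinib macrophage-like cells (-2.39 [-2.42, -2.37]), where the 9 class I genes had a median of -0.083. Class II genes took part in the clustering and lead the macrophage-like cluster that vehicle fills, so this is a description. Macrophage markers were lower with them in some other classes: the 12 together reached 12301 CPM in the T-like cells of vehicle and 4959.8 CPM in those of takinib, and 1397 and 896 CPM in epithelial-like cells. In B-like cells, where class II genes were lower too, these markers differed little (1942 and 1907 CPM). All 12 were detected in these classes in both libraries, and their part was not tested. Of 19 interferon-stimulated genes, 16 were higher in macrophage-like cells (0.22), 14 of 16 in epithelial-like (0.43) and 12 of 16 in T-like (0.72). Endothelial-like cells had 7 of 7 higher (0.45) and B-like cells 7 of 11 (0.12). Lower were 18 of 19 in monocyte-like (-1.05), 9 of 11 in fibroblast-like (-0.34) and 9 of 17 in neutrophil-like cells (-0.076). Beside both lists, 54.5% of all genes were higher in macrophage-like, 39.3% in epithelial-like, 48.3% in T-like and 35.7% in endothelial-like cells. In B-like, monocyte-like, fibroblast-like and neutrophil-like cells these shares were 48.2%, 59.0%, 44.3% and 29.6%. Isg15, a ubiquitin-like protein made on interferon, stood at 9.34 and 26.9 CPM in epithelial-like cells (0.93 [0.77, 1.09]), and Cxcl9, a chemokine that draws T cells, at 194 and 11.4 CPM in monocyte-like cells (-3.25 [-3.66, -2.81]).

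Clusters inside the macrophage-like class differed in direction. In the H2-Ab1-led cluster the median ratio of the 9 genes was -0.24, with 7 lower, and in the Chil3-led cluster, whose leading genes Car4, Ear2 and Marco are known from lung macrophages, it was -0.23, with 8 lower. In the Gpnmb-led cluster it was 0.25, with 8 higher, and in the Ccl8-led cluster 0.011. Psmb8 stood at 108 CPM in vehicle and 190.4 in takinib in the Ccl8-led cluster (log2 ratio 0.76), and at 157 and 128 CPM in the Chil3-led cluster (-0.28). The macrophage-like median thus lay between clusters above and below 0, whose shares of cells differed between the libraries. Within vehicle, macrophage-like cells of female origin (520) held less H2-K1 than those of male origin (1297), 573 against 850.4 CPM, and against the female cells alone the takinib median was 0.084.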

How the data were processed

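Counts per gene and barcode are the deposited values, raw UMI counts that the authors made with Cell Ranger 4 (vehicle) and 6.1.1 (takinib), per the file headers. The submitters' processing notes name mm10, Cell Ranger 2.1.1, STAR 2.0.4b and featureCounts 1.45, which differ from the headers. The vehicle list held unfiltered barcodes (704261) and the takinib list none under 500 UMIs (34158). Barcodes were kept with at least 1000 UMIs, 500 genes and at most 20% mitochondrial UMIs. Doublets were removed with Scrublet: 314 marked automatically in vehicle, and in takinib, where the automatic threshold marked 1, the highest 6% of scores (1607). Cells were clustered together with scanpy 1.11.5 (2000 variable genes, 30 components, 15 neighbours, Leiden resolution 1, igraph 0.11.9), leaving the members and pathway genes out of the variable genes. Clusters were named where 3 or more markers of a class reached 10% of cells and no other class came close.

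Counts were summed per class and library and scaled to CPM. Intervals are exact Poisson for levels and Clopper-Pearson for shares and ratios; PCR and droplet effects are outside them. The interval script was tested on simulated data. Alternatives covered thinning, cell filters, clustering, scaling, the added CPM, the origin of vehicle cells and subtraction of neutrophil RNA. Members and lists were chosen with earlier results of these data known. All 9 members are named; genes named from a list are among its 2 highest and 2 lowest ratios in a class, and the 5 genes of most similar pattern are named, apart from 1 gene not reported here. Promoter sequences are from RefSeq (GRCm38.p6) and positions from GENCODE M21.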

Additional observations from a re-analysis of the deposited data

How the results depend on the processing

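Limits first: with 1 library in each group no replicate could be left out, and the depth of small classes (115 vehicle monocyte-like and 104 takinib endothelial-like cells) limits every ratio in them. No paired analysis was possible because each group has 1 sample and the groups share a single replicate number. Of 100 medians of the 9 genes recomputed under 14 alternatives, 2 of them chosen after seeing the data (only clusters with 50 cells in each library, and vehicle cells of male origin), 87 moved by less than the spread of counting error and 13 moved by more. In B-like cells the median of -0.66 became -0.43 with cells thinned to 1000 UMIs, -0.41 at a mitochondrial limit of 10%, -0.38 in the shared cluster, -0.39 against male vehicle cells and -0.32 with the neutrophil profile subtracted. In endothelial-like cells 0.27 became 0.12, 0.42, 0.44 and 0.43 with thinning, the 10% limit, the median gene set to 0 and the subtraction. The macrophage-like median became -0.012 with the members among the clustering genes and 0.084 against female vehicle cells, the fibroblast-like median -0.028 with each library clustered alone, and the monocyte-like median 0.16 against male vehicle cells. With cells thinned, 3 epithelial-like members were higher by over 1.5-fold, with unnamed clusters named by score 4 monocyte-like members were lower, and at a mitochondrial limit of 10% 5 neutrophil-like members were lower. Setting the median gene to 0 moved the neutrophil-like median to 0.051. The cause of these shifts was not tested. Of 900 single ratios 85 changed sign, 1 of them (endothelial-like Psmb8) from a value past 1.5-fold. By more than the spread of counting error moved 166 of the 900 ratios and 133 of 144 shares of cells. So did 13 of 16 vehicle pair shares and 3 of 14 takinib pair shares. The number of members past 2-fold moved in 17 of 100 recomputed counts. Not run were the female vehicle cells in monocyte-like, neutrophil-like, T-like and B-like cells (under 25 cells), 2000 UMIs in neutrophil-like cells (13 vehicle cells), and equal weights outside the macrophage-like and epithelial-like classes.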

Other observations

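Several smaller or one-sided groups enter no comparison by class, and their levels are given as values. The dendritic-like cluster was, however, among the 15 clusters compared above for the share of H2-K1. Dendritic-like cells (60 vehicle and 86 takinib), led by Ccl22, Ccr7 and Fscn1, the genes of mature dendritic cells, held 643 CPM [527, 778] of Psmb8 in vehicle and 651 CPM [574, 735] in takinib, and 248.8 and 228 CPM of Tap1, above all 8 compared classes for both genes. Psmb8 made up 76.8% and 79.6% of the UMIs of Psmb8 and Psmb5 there. Acinar-like cells of vehicle (211), the enzyme-making cells of the pancreas, held 1493 CPM of B2m and 143 CPM of Psmb8. Perivascular-like cells of vehicle (592) held 675 CPM of B2m and 38.8 CPM of Psmb8. In takinib, erythroid-like cells (429) held 772 CPM of B2m and 337 CPM of H2-K1. An unnamed cluster led by U90926, Saa3 and F13a1, with 3 vehicle and 1908 takinib cells, held 1695 CPM of B2m, 1093 CPM of H2-K1 and 164 CPM of Psmb8. Within takinib neutrophil-like clusters B2m ranged from 666 CPM in that led by Camp, a granule gene of immature neutrophils, to 1474 CPM in that led by Lst1, and Psmb8 from 27.2 CPM in the Stfa2-led to 112 CPM in the Retnlg-led cluster.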
